A study of Mus musculus with 8 samples.

Results

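The circadian clock genes examined here are Arntl, Clock, Per1, Per2, Per3, Cry1, Cry2, Dbp, Tef and Hlf, chosen by gene symbol. They are 10 of the 50578 genes listed in the count table, and all 10 passed the filter on low counts that left 15154 genes for testing. These genes and the lists used below were chosen with earlier results of these data known, so the shares that passed only describe them. RNA was sequenced from wild-type (WT) mouse embryonic fibroblasts (MEFs), either as they were or after treatment with carbidopa, LY-364747 or CHIR-99021, with 2 libraries in each of the 4 groups. The study searched for small molecules that move cells from one state to another, and these 3 molecules had been selected to turn MEFs into hepatic-like cells. The cells were of passage 3 to 5, each molecule was used at 10 µM from 2 h after plating onwards, and fresh medium was given at intervals of 3 days. The MEF libraries are labelled as control, and whether these cells received a solvent is not given in the sources used here. Carbidopa inhibits aromatic amino acid decarboxylase, CHIR-99021 inhibits the kinase GSK3, and the inhibitor of the TGF-beta type I receptor that the labels call LY-364747 is spelled LY-364947 in the study's methods. The labels do not say whether the 2 libraries of a group came from separate cultures, so p-values measure the spread between these libraries, which may be technical. The length of treatment and the hour of harvest of these libraries are not given in the sources used here.

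The mammalian clock is a transcription loop that runs in most cells, cultured fibroblasts and hepatocytes included. The activators CLOCK and BMAL1 (encoded by Arntl) bind E-boxes and switch on the Per and Cry genes, whose proteins return to the nucleus and block the activators. The same activators drive Dbp, Tef and Hlf, the PAR bZIP factors that bind D-boxes in output genes, many of them in liver metabolism, while ROR and REV-ERB proteins compete at ROR elements (ROREs) to switch Arntl on or off. In a bulk library taken at a single time, fewer cells of a type cannot be told apart from less RNA per cell, and a shifted phase cannot be told apart from a changed mean level.

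The 250 bases upstream of annotated starts were searched on both strands for 6 short motifs of this network. RefSeq (GRCm38.p6) gave 14 such windows for 9 of the 10 genes, and Per2 was not among them. The E-box CACGTG was found in 4 of the 14 windows, which belong to Per1, Cry1 and Tef, and in 6.02% of all 32851 windows. The D-box, searched as TTANGTAA, was found in 1 window of the clock genes, that of Per3, and in 2.06% of all windows. The E-prime box CACGTT was found for Cry1 and Cry2 (3.85% of all windows), and the cyclic AMP response element (CRE) TGACGTCA for Hlf alone (1.55% of all windows). Its shorter site TGACGT, which lies inside the full CRE, was found for Hlf and Per1 (6.47% of all windows). The RORE, searched as ANTAGGTCA, was found in none of the 14 windows and in 0.548% of all windows. A match is a description of the letters and not a binding site shown by these data. The 5 windows below hold 3 of the 4 E-box matches, the D-boxes and the CRE of these genes, and the other window of Tef, which is wholly exonic, is not shown. Each is read 5′ to 3′ on the strand of its gene with the matches in capitals and ending at the base before the start.
Per1 (chr11:69098699-69098948, plus strand, E-box beginning 166 bases upstream): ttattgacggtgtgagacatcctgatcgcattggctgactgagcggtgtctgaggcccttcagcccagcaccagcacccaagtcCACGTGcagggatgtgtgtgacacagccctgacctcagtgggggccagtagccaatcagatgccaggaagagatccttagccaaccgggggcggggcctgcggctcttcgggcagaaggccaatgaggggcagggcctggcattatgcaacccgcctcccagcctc
Cry1 (chr10:85185055-85185304, minus strand, E-prime box beginning 79 and E-box 60 bases upstream): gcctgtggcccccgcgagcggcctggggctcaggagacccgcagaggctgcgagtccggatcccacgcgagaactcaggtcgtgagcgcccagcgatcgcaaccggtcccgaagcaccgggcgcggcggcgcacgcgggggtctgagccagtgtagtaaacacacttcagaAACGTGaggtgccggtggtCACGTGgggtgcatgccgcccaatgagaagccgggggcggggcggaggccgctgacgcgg
Per3 (chr4:151044666-151044915, minus strand, D-boxes beginning 205 and 158 bases upstream): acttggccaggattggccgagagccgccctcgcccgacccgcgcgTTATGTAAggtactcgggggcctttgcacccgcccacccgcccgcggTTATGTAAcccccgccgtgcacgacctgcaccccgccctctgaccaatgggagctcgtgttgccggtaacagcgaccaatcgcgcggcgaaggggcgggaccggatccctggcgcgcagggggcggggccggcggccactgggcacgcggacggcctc
Tef (chr15:81811164-81811413, plus strand, E-box beginning 138 bases upstream): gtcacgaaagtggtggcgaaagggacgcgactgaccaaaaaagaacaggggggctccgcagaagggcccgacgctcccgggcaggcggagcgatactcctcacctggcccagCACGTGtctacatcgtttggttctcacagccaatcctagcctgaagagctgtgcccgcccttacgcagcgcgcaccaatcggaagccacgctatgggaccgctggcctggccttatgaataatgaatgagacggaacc
Hlf (chr11:90390918-90391167, minus strand, CRE beginning 9 bases upstream): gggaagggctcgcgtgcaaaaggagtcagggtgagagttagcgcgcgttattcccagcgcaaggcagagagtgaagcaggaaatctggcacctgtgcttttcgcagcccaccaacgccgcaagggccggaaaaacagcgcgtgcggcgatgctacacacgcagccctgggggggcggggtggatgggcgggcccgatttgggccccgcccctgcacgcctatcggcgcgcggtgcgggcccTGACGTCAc
The Per1 and Tef windows lie before internal starts, inside the spans of their genes. The last 10 bases of the Cry1 window and the last base of the Per1 window are exonic in GENCODE M21, and the other 3 windows hold no annotated exon.

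Total counts per library ranged from 15039566 to 20504338. The carbidopa libraries stood apart as a pair, since their counts differed by 37.9 times the variance that sampling alone gives, against 4.57 to 10.0 times for the other pairs. The cell types were checked by marker lists, as sums in CPM, the count relative to library size after TMM scaling. The 10 fibroblast markers summed to between 34774 and 35112 CPM in MEF libraries and to between 8130 and 11716 CPM in treated libraries, with none at 0. Fn1 was the largest part, averaging 18975 CPM in MEF and 2744, 3759 and 4870 CPM with carbidopa, LY-364747 and CHIR-99021. Most of the 10 were lower in treated groups, but not all. In the same order Pdgfra averaged 251 CPM in MEF and 351, 323 and 390 CPM. Dcn averaged 1713 CPM in MEF and 1946, 1850 and 1095 CPM, and Pdgfrb 445 CPM and 250, 278 and 478 CPM. The 12 hepatocyte markers summed to 0.774 and 1.04 CPM in MEF libraries and to between 1.33 and 1.68 CPM in treated libraries, with 6 to 8 of them at 0 in every library, and none of the 12 passed the filter on low counts. Alb, the albumin gene, had 0 and 2 counts in MEF libraries and 5 to 10 in treated ones. Hnf4a, the gene of a hepatocyte transcription factor, had 1 and 2 counts against 6 to 10. These 2 genes were singled out after their values were seen, and other members went the other way. Apob averaged 0.436 CPM in MEF and 0.187, 0.0266 and 0.116 CPM with carbidopa, LY-364747 and CHIR-99021. In the same order Afp averaged 0.102 CPM in MEF and 0.0700, 0 and 0 CPM. The 12 macrophage markers summed to between 1137 and 1177 CPM in MEF libraries, to between 262 and 374 CPM with carbidopa or LY-364747, and to between 83.4 and 92.0 CPM with CHIR-99021. The 14 cell cycle genes summed to between 186 and 204 CPM with CHIR-99021 and to between 303 and 338 CPM in the other libraries. Members did not all follow this sum. Mcm2 and Mcm3 averaged 25.2 and 20.8 CPM in MEF and 41.7 and 31.7 CPM with CHIR-99021. Mki67 averaged 72.3 CPM in MEF and 37.8, 55.3 and 15.2 CPM with carbidopa, LY-364747 and CHIR-99021. The part of these markers in the results below was not tested.

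Against MEF, the clock genes moved in both directions with every molecule. Arntl and Per1 were lower and Dbp and Hlf higher with each of the 3 molecules, whereas Per2, Per3, Cry1, Cry2 and Tef passed the test with some of them and Clock with none. With carbidopa, 3 of the 10 clock genes rose and 2 fell, beside 37.7% of all genes tested that passed in either direction. With LY-364747, 6 rose and 2 fell, beside 31.0% of all genes. With CHIR-99021, 5 rose and 2 fell, beside 38.8% of all genes. The median log2 fold change of the 10 was 0.27, 0.44 and 0.16 for carbidopa, LY-364747 and CHIR-99021, and that of all genes tested was 0.037, 0.028 and 0.043. The 3 comparisons share the same 2 MEF libraries, so they are not independent of each other. Fewer of the 10 were called for LY-364747 and for CHIR-99021 without either MEF library. The same held without LY-364747 replicate 1 and CHIR-99021 replicate 1 in their own comparisons. Counts over all genes also varied as libraries were left out. DESeq2 gave 4 calls for CHIR-99021, with 5265 of all genes where the main fit gave 5878. Tests are edgeR quasi-likelihood tests with p-values adjusted by Benjamini-Hochberg over all 15154 genes, and a gene is said to rise or fall where the adjusted p was under 0.05.

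**Figure D1:**
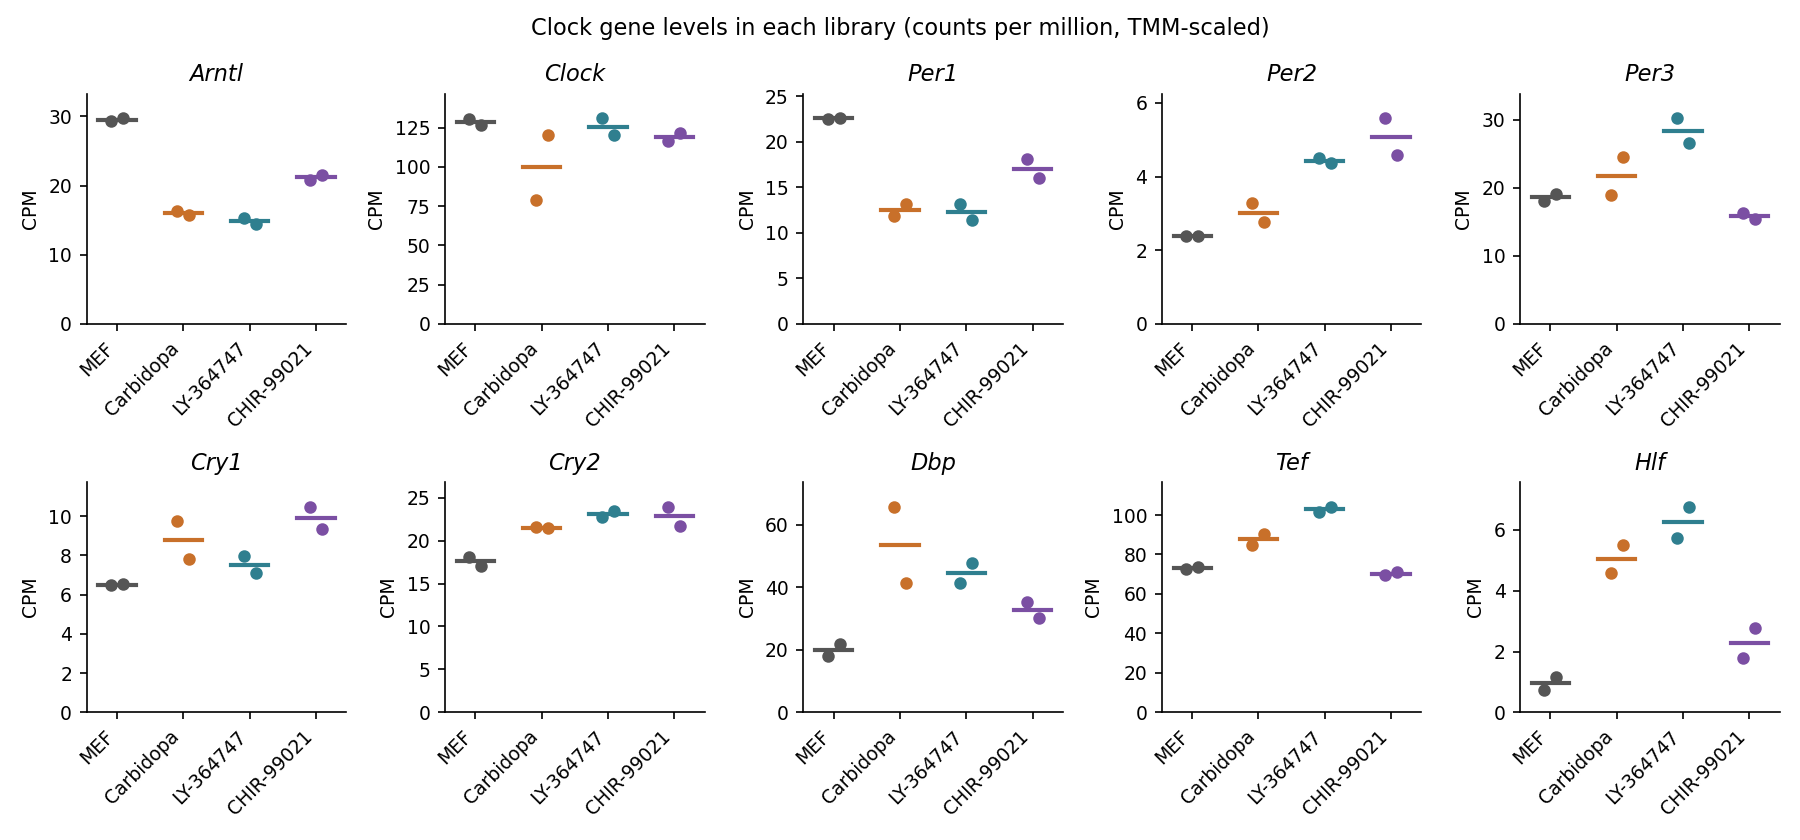
Level of each of the 10 clock genes in CPM (TMM-scaled, y axis from 0) in each library, with a panel per gene, the 4 groups on the x axis, a point per library and a line at the mean of the 2 libraries. Arntl and Per1 sit highest in MEF, Dbp and Hlf lowest in MEF, and the carbidopa libraries lie apart for Clock and Dbp.

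Among the activators, Arntl (ENSMUSG00000055116, chr7:113207465-113314126), whose protein BMAL1 is the partner of CLOCK, stood at 29.3 and 29.7 CPM in MEF libraries. It was at 16.3 and 15.8 CPM with carbidopa, at 15.3 and 14.4 CPM with LY-364747 and at 20.8 and 21.6 CPM with CHIR-99021. The MEF libraries were the highest, the carbidopa and LY-364747 libraries the lowest, and no treated library overlapped MEF. Arntl fell with carbidopa by 0.88 on the log2 scale (SE 0.11, adjusted p = 1.84e-04), with LY-364747 by 0.99 (SE 0.11, adjusted p = 8.90e-05) and with CHIR-99021 by 0.48 (SE 0.11, adjusted p = 0.00722). Its MEF level was thus 1.84, 1.99 and 1.39 times the treated level. The first 2 of these calls held in all 14 alternative analyses and the third in 12 of 14, being lost without MEF replicate 2 or CHIR-99021 replicate 1. Over all 14 alternatives the third value ranged from -0.52 to -0.45.

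Clock (ENSMUSG00000029238, chr5:76209868-76304792), which encodes the other activator, was at 130 and 127 CPM in MEF, 131 and 120 CPM with LY-364747 and 116 and 122 CPM with CHIR-99021. The carbidopa libraries were at 79.1 and 121 CPM. One carbidopa library was therefore below every other library and its partner was among them. No comparison of Clock with MEF passed the test (adjusted p = 0.109 for carbidopa, 0.907 for LY-364747 and 0.635 for CHIR-99021). The 95% intervals of its log2 fold change ran from -0.73 to 0.0043 for carbidopa, from -0.40 to 0.33 for LY-364747 and from -0.48 to 0.26 for CHIR-99021. The carbidopa value rested on replicate 1, being -0.089 without it and -0.70, past the threshold, without replicate 2. With all libraries but no filter on low counts, the carbidopa value of -0.34 also passed (adjusted p = 0.0342).

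The Per genes, which encode the inhibitors that pair with cryptochromes, did not move together. Per1 (ENSMUSG00000020893, chr11:69095217-69109960), the member of the family best known for rapid induction by serum, glucocorticoid and cyclic AMP, was at 22.5 and 22.6 CPM in MEF libraries. It was at 11.9 and 13.2 CPM with carbidopa, 13.2 and 11.4 CPM with LY-364747 and 18.1 and 16.0 CPM with CHIR-99021. MEF libraries were above all treated ones without overlap, and CHIR-99021 libraries lay between. Per1 fell with carbidopa by 0.85 (SE 0.14, adjusted p = 8.57e-04), with LY-364747 by 0.87 (SE 0.14, adjusted p = 8.04e-04) and with CHIR-99021 by 0.40 (SE 0.14, adjusted p = 0.0386) on the log2 scale. The CHIR-99021 call held in 5 of the 14 alternatives, over values from -0.49 to -0.31. It was lost with DESeq2, without the filter, with the replicate number as a block and without any single MEF, CHIR-99021 or LY-364747 library, while the other 2 calls held in all 14.

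Per2 (ENSMUSG00000055866, chr1:91415982-91459324) was read from few fragments, with 32 and 37 counts in MEF, 70 and 59 with carbidopa, 80 and 82 with LY-364747 and 97 and 79 with CHIR-99021. These are 2.38 and 2.39 CPM in MEF, 3.30 and 2.75 CPM with carbidopa, 4.49 and 4.37 CPM with LY-364747 and 5.58 and 4.58 CPM with CHIR-99021. Every treated library was above both MEF libraries. Per2 rose 2.13-fold with CHIR-99021 (log2 1.09, SE 0.23, adjusted p = 0.00380) and 1.86-fold with LY-364747 (log2 0.89, SE 0.23, adjusted p = 0.0137). With carbidopa its log2 fold change was 0.34 (SE 0.23, adjusted p = 0.275), with a 95% interval from -0.18 to 0.86. The CHIR-99021 call held in all 14 alternatives, and the LY-364747 call in 9, being lost with DESeq2 and without any single MEF or LY-364747 library. Over all 14 alternatives the LY-364747 value ranged from 0.87 to 0.91.

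Per3 (ENSMUSG00000028957, chr4:151003652-151044665) was at 18.1 and 19.0 CPM in MEF, 19.0 and 24.5 CPM with carbidopa, 30.3 and 26.6 CPM with LY-364747 and 16.4 and 15.5 CPM with CHIR-99021. The LY-364747 libraries were the highest and the CHIR-99021 libraries the lowest. Per3 rose with LY-364747 by 0.61 on the log2 scale (SE 0.15, adjusted p = 0.00942), while the values for carbidopa (0.23, adjusted p = 0.247) and CHIR-99021 (-0.22, adjusted p = 0.268) did not pass. The LY-364747 call was lost without either MEF library or LY-364747 replicate 1 (values over the alternatives from 0.52 to 0.70), and carbidopa passed at 0.40 without carbidopa replicate 1. Per length of exon, the 3 Per genes summed to 6.35 ± 0.07 RPKM in MEF (SD, n = 2), 5.01 ± 0.51 with carbidopa, 5.90 ± 0.50 with LY-364747 and 5.55 ± 0.44 with CHIR-99021, where RPKM is reads per kilobase of exon scaled as for CPM. Within that sum the share of Per2 was 6.41% ± 0.06 (SD, n = 2) in MEF, 10.4% ± 2.4 with carbidopa, 12.9% ± 0.8 with LY-364747 and 15.6% ± 0.9 with CHIR-99021. With so few Per2 counts in MEF, the SD of 2 libraries may understate the error of its share. Per1 and Per3 thus made up most of the Per RNA in every group.

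The cryptochromes are the strongest repressors of CLOCK and BMAL1. Cry1 (ENSMUSG00000020038, chr10:85131700-85185064) was at 6.47 and 6.52 CPM in MEF, 9.74 and 7.79 CPM with carbidopa, 7.97 and 7.08 CPM with LY-364747 and 10.5 and 9.34 CPM with CHIR-99021. All treated libraries were above MEF, but only CHIR-99021 passed the test (log2 0.61, SE 0.18, adjusted p = 0.0215), with 0.43 for carbidopa (adjusted p = 0.0816) and 0.21 for LY-364747 (adjusted p = 0.420). Cry2 (ENSMUSG00000068742, chr2:92403646-92434043) was at 18.1 and 17.1 CPM in MEF, 21.6 and 21.5 CPM with carbidopa, 22.7 and 23.5 CPM with LY-364747 and 24.0 and 21.7 CPM with CHIR-99021. No treated library overlapped MEF for Cry2 either. It rose by 0.39 with LY-364747 (SE 0.12, adjusted p = 0.0287) and by 0.37 with CHIR-99021 (SE 0.12, adjusted p = 0.0295) on the log2 scale, and the carbidopa value was 0.29 (SE 0.12, adjusted p = 0.0783). These Cry2 calls held in 8 and 7 of the 14 alternatives (values from 0.35 to 0.43 and from 0.31 to 0.45) and the Cry1 call in 10 (from 0.53 to 0.70), and all 3 were lost with DESeq2 and without either MEF library. Without LY-364747 replicate 1 both Cry2 calls, and without CHIR-99021 replicate 1 the Cry1 call and the CHIR-99021 call of Cry2, were lost, as were both Cry2 calls without LY-364747 replicate 2, while Cry1 passed with carbidopa at 0.59 without carbidopa replicate 2.

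The largest differences were among the PAR bZIP output factors. Hlf (ENSMUSG00000003949, chr11:90336536-90390895), which encodes hepatic leukemia factor, had 10 and 18 counts in MEF, 97 and 118 with carbidopa, 102 and 127 with LY-364747 and 31 and 48 with CHIR-99021. In CPM this was 0.744 and 1.16 in MEF, 4.57 and 5.50 with carbidopa, 5.73 and 6.76 with LY-364747 and 1.78 and 2.79 with CHIR-99021. The carbidopa and LY-364747 libraries were highest, the CHIR-99021 libraries lay between, and none overlapped MEF. Hlf rose 5.20-fold with carbidopa (log2 2.38, SE 0.32, adjusted p = 2.39e-04), 6.44-fold with LY-364747 (log2 2.69, SE 0.32, adjusted p = 9.83e-05) and 2.36-fold with CHIR-99021 (log2 1.24, SE 0.35, adjusted p = 0.0179). The low MEF counts limited these folds, which ranged over the alternatives from 2.11 to 2.74, from 2.42 to 3.06 and from 0.89 to 1.60 on the log2 scale. The CHIR-99021 call was lost without MEF replicate 1 or CHIR-99021 replicate 2, at 0.97 and 0.89 respectively.

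Dbp (ENSMUSG00000059824, chr7:45705088-45710203), the D-box binding factor that is among the most strongly rhythmic of liver transcripts, was at 18.1 and 21.9 CPM in MEF libraries. It was at 65.8 and 41.4 CPM with carbidopa, 41.4 and 47.8 CPM with LY-364747 and 35.4 and 30.2 CPM with CHIR-99021. All treated libraries exceeded MEF, and carbidopa replicate 1 was the highest. Dbp rose 2.67-fold with carbidopa (log2 1.42, SE 0.21, adjusted p = 4.39e-04), 2.23-fold with LY-364747 (log2 1.15, SE 0.21, adjusted p = 0.00180) and 1.63-fold with CHIR-99021 (log2 0.71, SE 0.21, adjusted p = 0.0222). The carbidopa value was 1.04 without carbidopa replicate 1 and 1.71 without replicate 2, and passed the threshold in both cases. The CHIR-99021 call was lost without either MEF library or CHIR-99021 replicate 1, and its values over all alternatives ranged from 0.58 to 0.85. Dbp shares 539 bases, 18% of its exon length, with Sphk2 on the opposite strand, and whether the reads were counted by strand is not stated in the sources used here. Sphk2 had 290 to 559 counts per library and log2 fold changes of 0.074, 0.0036 and 0.41 for carbidopa, LY-364747 and CHIR-99021, none past the threshold.

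Tef (ENSMUSG00000022389, chr15:81802421-81826863), the third of these factors, was at 72.6 and 73.8 CPM in MEF, 85.0 and 90.5 CPM with carbidopa, 102 and 104 CPM with LY-364747 and 69.4 and 71.1 CPM with CHIR-99021. The LY-364747 libraries were highest, and the CHIR-99021 libraries were just below MEF. Tef rose 1.41-fold with LY-364747 (log2 0.49, SE 0.09, adjusted p = 0.00239) in all 14 alternatives and by 0.26 with carbidopa (SE 0.09, adjusted p = 0.0484), a call that held in 1 of 14, without carbidopa replicate 1, over values from 0.22 to 0.31. With CHIR-99021 its log2 fold change was -0.059 (adjusted p = 0.654), with a 95% interval from -0.27 to 0.15.

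**Figure D2:**
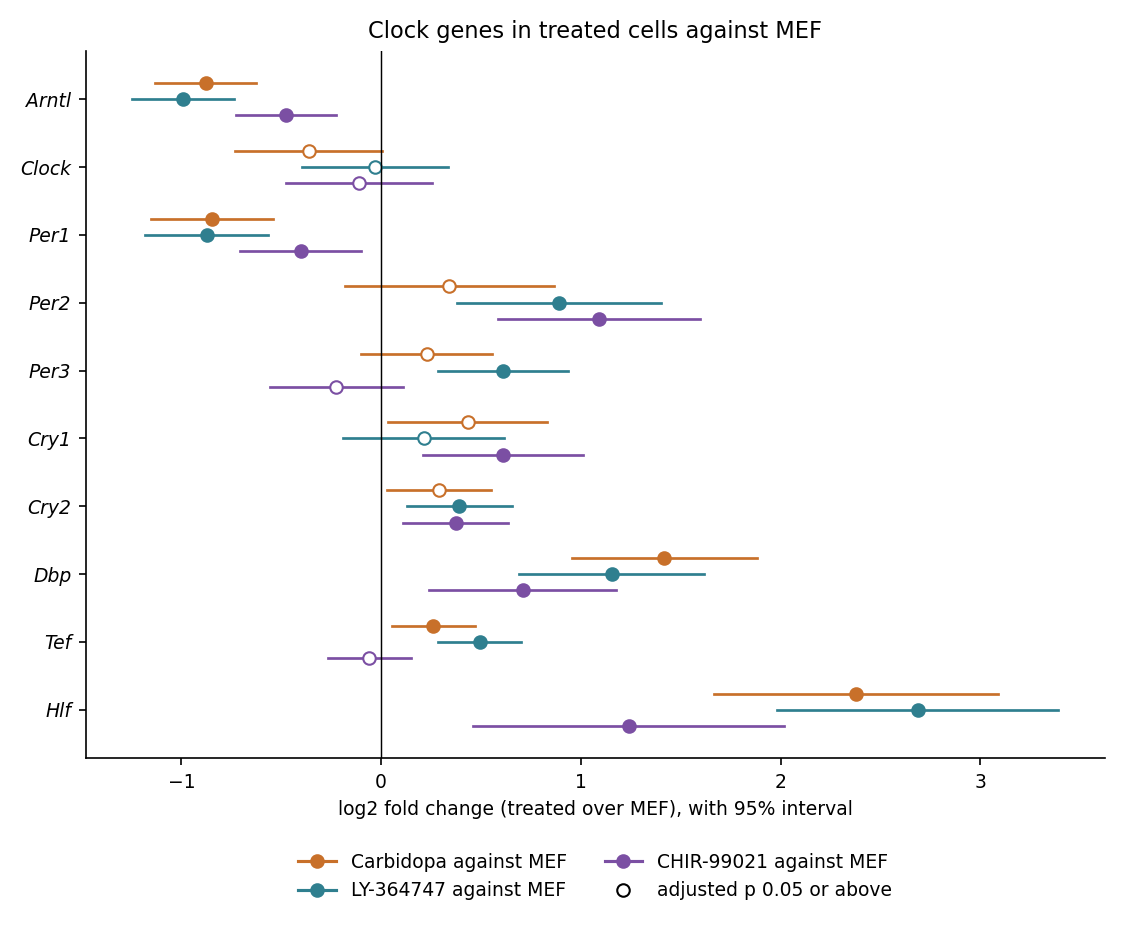
Log2 fold change of each clock gene against MEF (x axis) for carbidopa, LY-364747 and CHIR-99021, with bars for the 95% interval and filled points where the adjusted p was under 0.05. Hlf lies farthest to the right with values of 2.38, 2.69 and 1.24, and Arntl and Per1 lie to the left of 0 with all 3 molecules.

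Per length of exon, the order of the clock genes differed between MEF and treated cells. In MEF libraries Clock (9.36 ± 0.19 RPKM, SD, n = 2) and Tef (9.30 ± 0.11) stood first with overlapping values, followed by Dbp (6.69 ± 0.88), Per1 (4.01 ± 0.01), Arntl (3.92 ± 0.04), Cry2 (2.79 ± 0.12), Cry1 (1.94 ± 0.01) and Per3 (1.93 ± 0.07). Cry1 and Per3 overlapped, and Per2 (0.407 ± 0.001) and Hlf (0.143 ± 0.044) were last. Dbp stood first in every treated group, at 17.9 ± 5.8 RPKM with carbidopa, 14.9 ± 1.5 with LY-364747 and 10.9 ± 1.2 with CHIR-99021. Arntl stood 5th in MEF, 8th with carbidopa and LY-364747 and 7th with CHIR-99021. Its values overlapped those of the gene placed just above it with carbidopa (Per1) and with CHIR-99021 (Cry1). Hlf passed Per2 with carbidopa (0.754 ± 0.099 against 0.516 ± 0.066 RPKM) and with LY-364747 (0.935 ± 0.110 against 0.756 ± 0.015), and remained last with CHIR-99021 (0.342 ± 0.106 against 0.868 ± 0.121). The order depends on the exon length used, and with the longest transcript 4 of the 10 kept their place in MEF. By that length the mean of Arntl was above those of Per1 and Cry1 in every group. With carbidopa, for example, it was 4.02 against 2.68 and 2.90 RPKM. The places of Arntl in treated groups thus depend on the length as well.

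The balance between arms of the loop followed from these levels. The ratio of Arntl to Per2, both in RPKM, was 9.64 ± 0.08 in MEF (SD, n = 2), 4.16 ± 0.44 with carbidopa, 2.61 ± 0.05 with LY-364747 and 3.28 ± 0.54 with CHIR-99021. Per2 had 32 and 37 counts in MEF, and 2 libraries are too few for the SD to show the error of such low counts. The ratio of Arntl to Dbp was 0.592 ± 0.072 in MEF, 0.125 ± 0.038 with carbidopa, 0.133 ± 0.019 with LY-364747 and 0.259 ± 0.036 with CHIR-99021. Dbp, Tef and Hlf together came to 16.1 ± 1.0 RPKM in MEF, 29.8 ± 5.2 with carbidopa, 28.9 ± 1.8 with LY-364747 and 20.2 ± 1.0 with CHIR-99021. Of that sum Hlf held 0.877% ± 0.218 in MEF, 2.60% ± 0.78 with carbidopa, 3.22% ± 0.17 with LY-364747 and 1.71% ± 0.61 with CHIR-99021, so that Dbp and Tef carried almost all of it. Set against Nfil3, which encodes the repressor that competes for the same D-boxes, the sum was 12.4 ± 0.9 times as high in MEF, 16.4 ± 1.1 with carbidopa, 20.4 ± 3.7 with LY-364747 and 10.3 ± 0.4 with CHIR-99021. Nfil3 had 32 and 45 counts in MEF, 84 and 73 with carbidopa, 56 and 50 with LY-364747 and 69 and 68 with CHIR-99021. The ratios to Nfil3 therefore rest on few reads.

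**Figure D3:**
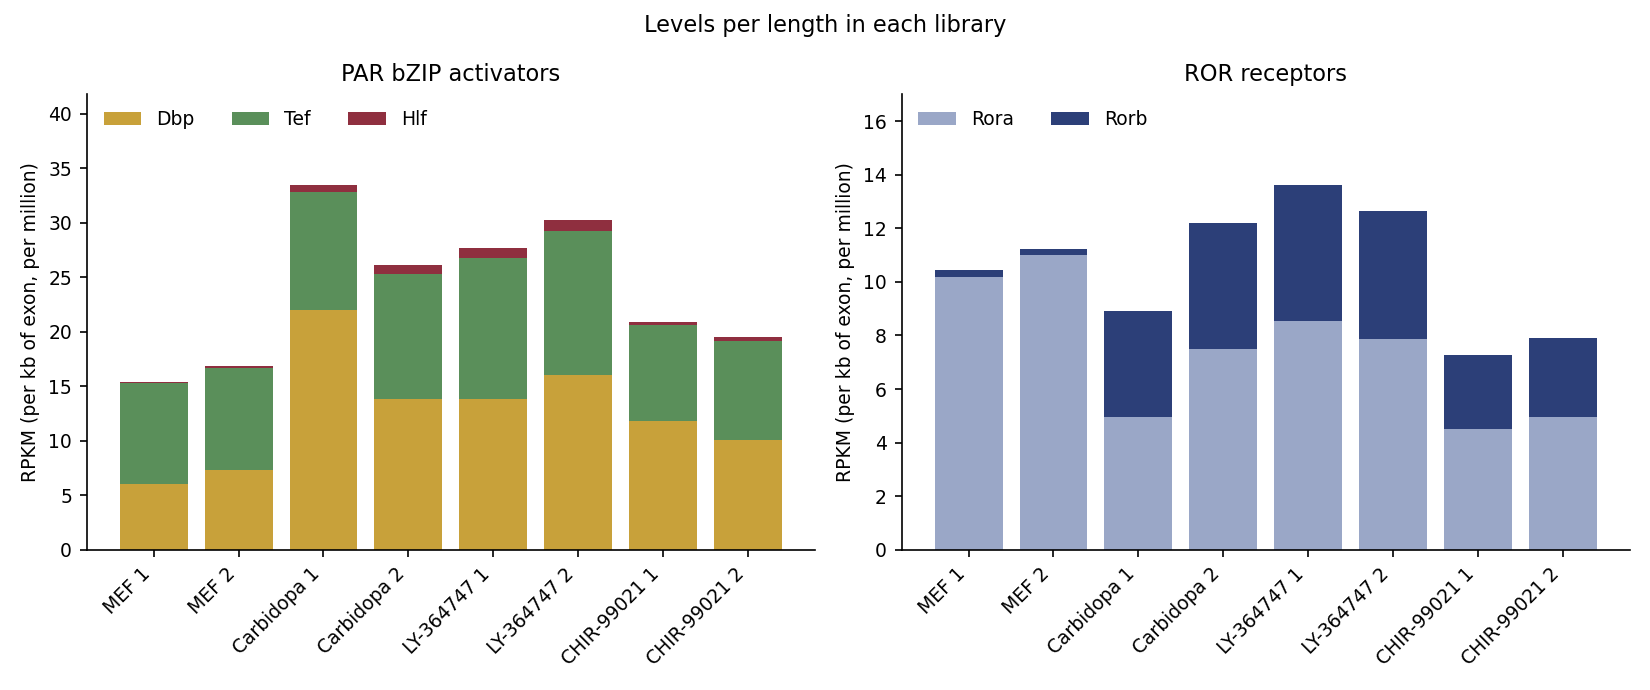
Levels per exon length (RPKM, y axis from 0) stacked for Dbp, Tef and Hlf and for Rora and Rorb, with a bar per library in the 4 groups. The PAR bZIP sum is higher in every treated library than in MEF, and least so with CHIR-99021. Rorb holds 2.16% of the ROR bars in MEF and 37.6% to 41.4% in the treated groups.

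The molecules were also set against each other. Between LY-364747 and carbidopa, none of the 10 clock genes passed the edgeR test, beside 0.0132% of all genes tested, and DESeq2 also called none. At an unadjusted p under 0.05, 3 of the 10 passed (Per2, Per3 and Tef, all higher with LY-364747), as did 1367 of all genes tested. The 95% intervals of the log2 difference between LY-364747 and carbidopa ran from 0.075 to 1.02 for Per2, from 0.066 to 0.70 for Per3 and from 0.026 to 0.44 for Tef, so the missed threshold does not show that the molecules acted alike. Leaving out 1 library at a time, these differences ranged from 0.42 to 0.68 for Per2, from 0.21 to 0.58 for Per3 and from 0.19 to 0.28 for Tef.

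CHIR-99021 differed from carbidopa for 5 of the 10 clock genes, 2 higher and 3 lower, beside 14.7% of all genes tested. Arntl (log2 difference 0.40, SE 0.11, adjusted p = 0.0413) and Per2 (0.75, SE 0.21, adjusted p = 0.0406) were higher with CHIR-99021. The 3 PAR bZIP genes were lower with it, namely Hlf (-1.14, SE 0.27, adjusted p = 0.0196), Dbp (-0.71, SE 0.20, adjusted p = 0.0394) and Tef (-0.32, SE 0.09, adjusted p = 0.0440). The count rested on how the spread was estimated and on single libraries. It was 0 in a fit of those 2 groups alone, 2 with the replicate number as a block and 2 with DESeq2. Of all genes tested, the same alternatives called 1027, 2010 and 2076, where the main fit called 2227. Leaving out single libraries changed both the count of clock genes and that of all genes. Dbp moved most, to -0.33 without carbidopa replicate 1 and -1.0 without replicate 2.

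CHIR-99021 differed from LY-364747 for 5 of the 10 as well, 2 higher and 3 lower, beside 14.1% of all genes tested. Arntl (0.51, SE 0.12, adjusted p = 0.0155) and Per1 (0.47, SE 0.14, adjusted p = 0.0495) were higher with CHIR-99021. Hlf (-1.45, SE 0.27, adjusted p = 0.00620), Per3 (-0.83, SE 0.15, adjusted p = 0.00445) and Tef (-0.55, SE 0.09, adjusted p = 0.00366) were lower. The Hlf difference passed in 12 of the 14 alternatives, that of Arntl in 10 and that of Per1 in 4, Per1 being lost with DESeq2, RLE size factors, the stricter filter and the replicate block among others. The Per3 and Tef differences passed in 13, Tef losing its call without CHIR-99021 replicate 1 and Per3 without LY-364747 replicate 1. The count of 5 fell without either CHIR-99021 library or either LY-364747 library, and the count over all genes also varied as libraries were left out. For Cry2 the difference was -0.018, with a 95% interval from -0.27 to 0.24, and for Clock it was -0.078, from -0.44 to 0.29.

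**Figure D4:**
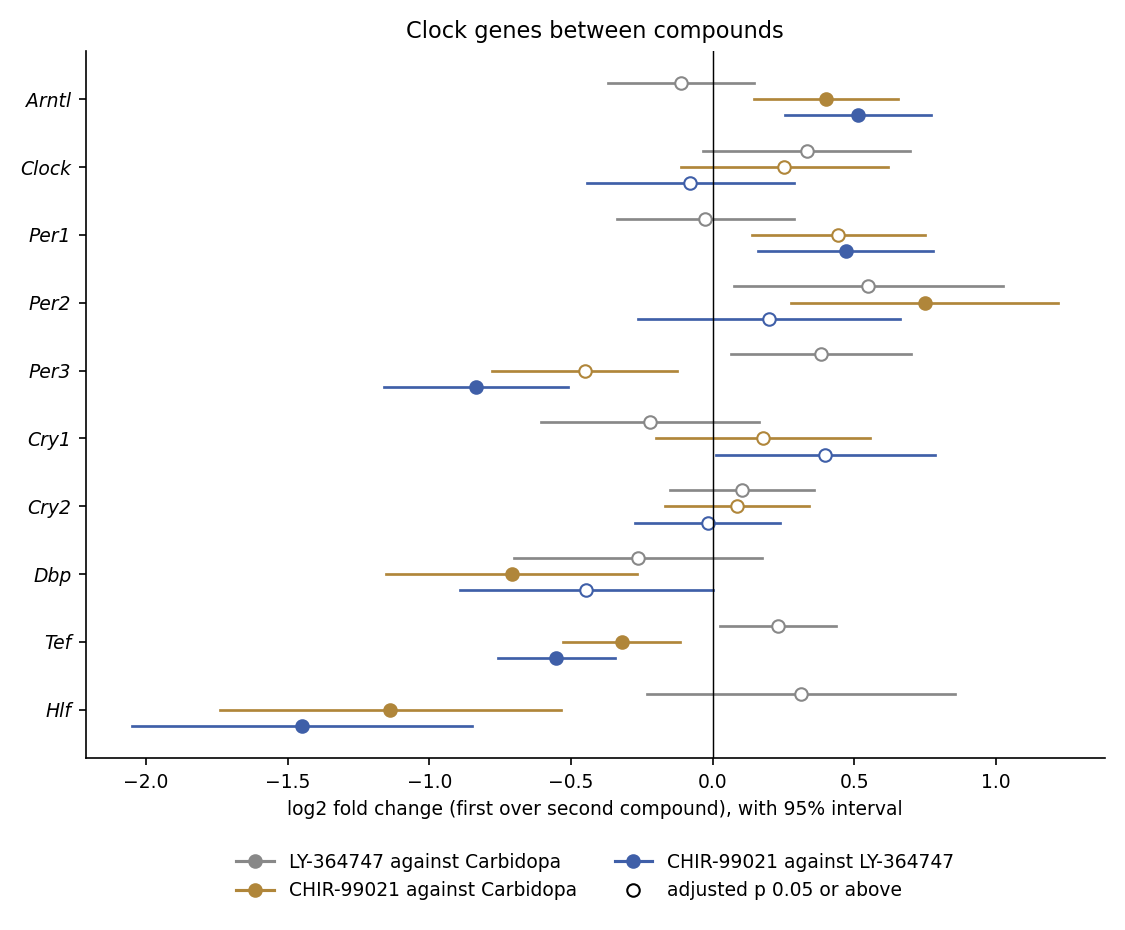
Log2 difference of each clock gene between pairs of molecules (x axis), with bars for the 95% interval and filled points where the adjusted p was under 0.05. No point is filled for LY-364747 against carbidopa, and Hlf and Tef are filled and below 0 for CHIR-99021 against either molecule.

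The partners of these genes, a list of 12 further transcription factors and direct interactors, were read from the same fits, and 11 of them passed the filter on low counts. With carbidopa 2 rose and 5 fell, and with LY-364747 and with CHIR-99021 2 rose and 4 fell. These are 63.6%, 54.5% and 54.5% of those tested, beside 37.7%, 31.0% and 38.8% of all genes tested. Rorb, which encodes an activator at ROREs, was at 2.90 and 2.26 CPM in MEF, 44.0 and 51.8 CPM with carbidopa, 56.6 and 52.9 CPM with LY-364747 and 30.5 and 32.7 CPM with CHIR-99021. It was the partner that rose most, by 4.22 (SE 0.17), 4.41 (SE 0.17) and 3.62 (SE 0.17) on the log2 scale. Rora, its relative, was at 133 and 144 CPM in MEF, 64.8 and 98.2 CPM with carbidopa, 111 and 103 CPM with LY-364747 and 59.1 and 64.9 CPM with CHIR-99021. Rora fell with carbidopa by 0.77 (adjusted p = 0.00521) and with CHIR-99021 by 1.16 (adjusted p = 3.99e-04), and its value with LY-364747 was -0.37 (adjusted p = 0.120). The sum of Rora and Rorb was 10.8 ± 0.5 RPKM in MEF (SD, n = 2), 10.6 ± 2.3 with carbidopa, 13.1 ± 0.7 with LY-364747 and 7.60 ± 0.46 with CHIR-99021, while the share of Rorb in it was 2.16% ± 0.49, 41.4% ± 4.3, 37.6% ± 0.2 and 37.6% ± 0.4. The genes of the opposing REV-ERB repressors, Nr1d1 and Nr1d2, passed the test with none of the molecules and were singled out after their values were seen. Nr1d1 averaged 74.7 CPM in MEF, 70.6 with carbidopa, 67.4 with LY-364747 and 83.2 with CHIR-99021, and Nr1d2 averaged 107, 122, 125 and 99.6 CPM.

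Npas2, which encodes a substitute for CLOCK, fell with all 3 molecules, by 1.76, 1.48 and 1.66 on the log2 scale for carbidopa, LY-364747 and CHIR-99021 (adjusted p = 0.00115, 0.00339 and 0.00173). Cipc, which encodes an inhibitor of CLOCK, rose by 0.91, 0.97 and 1.43 (adjusted p = 2.17e-04, 1.38e-04 and 8.10e-06). The E-box repressors DEC1 and DEC2 are encoded by Bhlhe40 and Bhlhe41. Bhlhe41 fell by 0.66, 0.74 and 0.84 (adjusted p = 9.28e-04, 5.25e-04 and 1.99e-04). Bhlhe40 was at 105 and 109 CPM in MEF and 102 and 100 CPM with CHIR-99021 (log2 -0.079, adjusted p = 0.558), but at 57.6 and 52.2 CPM with carbidopa and 51.0 and 48.0 CPM with LY-364747. Carbidopa and LY-364747 libraries were thus apart from the others, and the difference between CHIR-99021 and carbidopa was 0.88 (SE 0.10, adjusted p = 3.28e-04) and that between CHIR-99021 and LY-364747 1.03 (SE 0.10, adjusted p = 1.52e-04).

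Of the 19 kinases, ubiquitin ligases, deubiquitinases and cofactors that set the stability or activity of clock proteins, 5 passed against MEF with each molecule. With carbidopa 3 rose and 2 fell, with LY-364747 4 rose and 1 fell, and with CHIR-99021 3 rose and 2 fell. Each count is 26.3% of the list, below the 37.7%, 31.0% and 38.8% of all genes tested that passed. Usp2, which encodes a deubiquitinase of clock proteins, was the member that fell most, by 1.44 with carbidopa, 1.51 with LY-364747 and 1.41 with CHIR-99021 (adjusted p = 5.99e-04, 5.13e-04 and 7.35e-04). The kinase genes Csnk1d (0.32, 0.35 and 0.41) and Csnk1e (0.30, 0.32 and 0.37), whose proteins phosphorylate PER, rose with all 3. So did Btrc (0.53, 0.38 and 0.50), which encodes a ligase that marks PER for breakdown. Whether these small changes kept their calls in the alternatives was not followed gene by gene. Gsk3b, the gene of a kinase that CHIR-99021 inhibits, fell with carbidopa by 0.52 (adjusted p = 0.0126), and its value with CHIR-99021 was -0.32 (adjusted p = 0.0826). Its level was 296 and 323 CPM in MEF and 186 and 245 CPM with carbidopa. With LY-364747 it was 273 and 250 CPM, and with CHIR-99021 234 and 260 CPM. Carbidopa replicate 1 was thus the lowest library, and replicate 2 lay between the CHIR-99021 libraries. None of the 19 genes passed the test between CHIR-99021 and carbidopa.

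Of 9 output genes under clock or D-box control in liver, 8 were tested. With carbidopa and with LY-364747 5 rose and 2 fell, and with CHIR-99021 4 rose and 2 fell. These are 87.5%, 87.5% and 75.0% of those tested, beside 37.7%, 31.0% and 38.8% of all genes tested. Like the other lists, this one was chosen with earlier results of these data known. Noct, which encodes the rhythmic nucleotide phosphatase nocturnin, was at 24.3 and 22.8 CPM in MEF, 114 and 104 CPM with carbidopa, 110 and 117 CPM with LY-364747 and 191 and 183 CPM with CHIR-99021. All treated libraries were far above MEF and those with CHIR-99021 were highest. Its log2 fold changes were 2.20, 2.26 and 2.99 for carbidopa, LY-364747 and CHIR-99021 (SE 0.11 each). Wee1, the gene of a kinase that delays mitosis, rose by between 2.37 and 2.58 with each molecule (SE 0.12 each), and Por, the gene of cytochrome P450 reductase, by 2.32, 2.11 and 2.21 (SE 0.16 each). Pdk4, the gene of a kinase that restrains pyruvate dehydrogenase, rose by 1.62, 1.71 and 1.08. The adjusted p of these 4 genes was at most 4.71e-05 with any molecule. Ces2g, a carboxylesterase gene, rose with carbidopa (1.08, adjusted p = 0.00256) and LY-364747 (1.09, adjusted p = 0.00259), and its value with CHIR-99021 was 0.31 (adjusted p = 0.278). Nampt, the gene of the rate-limiting enzyme of NAD salvage and an E-box target, fell by 0.54, 0.59 and 0.85 (adjusted p = 0.00271, 0.00184 and 1.40e-04).

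**Figure D5:**
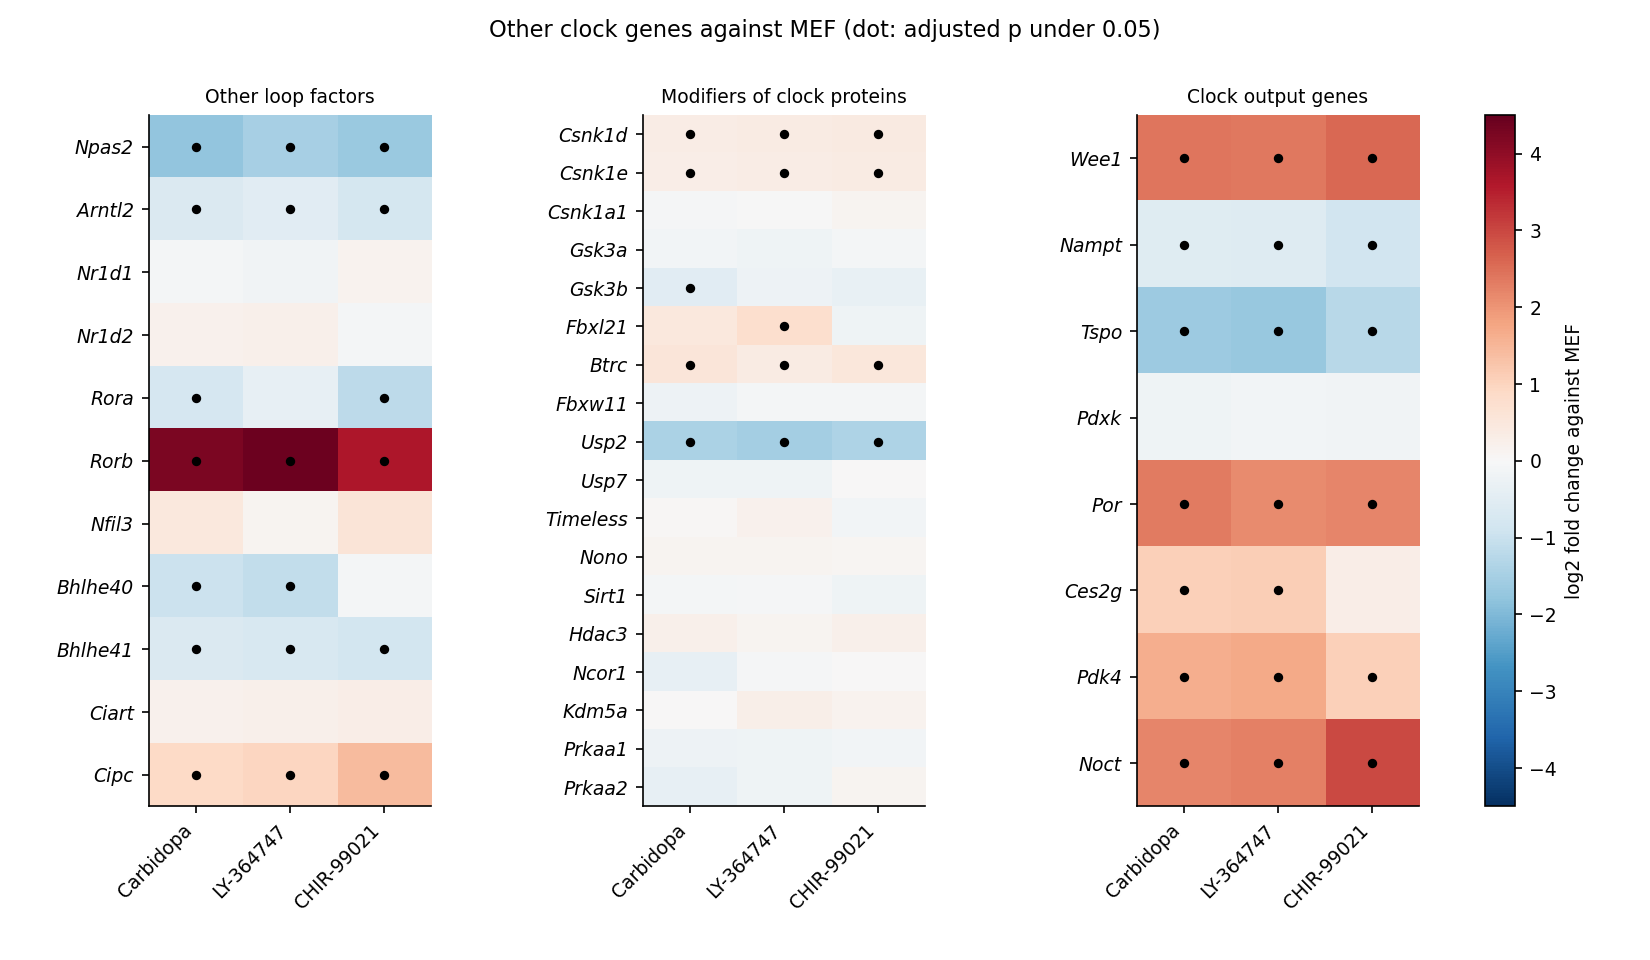
Log2 fold change against MEF (colour scale) for tested partners, modifiers and outputs of the clock with each molecule, with a dot where the adjusted p was under 0.05. Rorb, Noct, Wee1 and Por are raised most, and Npas2, Usp2 and Tspo lowered most, Tspo being named here after its values were seen.

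Across the 8 libraries, log2 CPM of Arntl ran with that of Per1 (Pearson r = 0.97) and opposite to Hlf (r = -0.97) and Dbp (r = -0.90), while Per2 ran with Cry2 (r = 0.87) and not with Per3 (r = 0.015). Of all other tested genes, those most like Arntl were Bdnf (r = 0.996), Mfap4 (r = 0.995) and Syncrip (r = 0.994). Those most like Dbp were Casp6 (r = 0.995), Wbp1 (r = 0.990) and Prss23 (r = 0.988), and those most like Per2 were Otud5 (r = 0.972), Arid4a (r = 0.963) and Tbx3 (r = 0.963). The 8 points fall into 4 groups of 2 and share the library and its depth, so these correlations only describe the profiles over the groups.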

How the data were processed

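RNA-seq libraries were made from MEFs and from MEFs treated with carbidopa, LY-364747 or CHIR-99021, 2 libraries per group. Reads had been aligned by the authors to mm10 (STAR 2.4.2a) and assigned to genes (featureCounts), and the authors deposited raw counts per gene for all 8 libraries in 1 table. bcl2fastq and DESeq2 are also named in the submitters' processing notes. The annotation release and strand setting are not given in the sources used here, and the labels and the study's methods name different library kits. Groups and replicate numbers were taken from the sample titles.

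Counts were analysed in R 4.3.3 with edgeR 4.0.16 (TMM, filterByExpr with a minimum count of 10, quasi-likelihood test, a single fit of all 8 libraries on group alone, 6 comparisons, Benjamini-Hochberg adjustment over the 15154 genes tested). An adjusted p under 0.05 was taken as the threshold. The biological coefficient of variation was 11.0%. Correlations used log2 CPM with a prior count of 2. Lengths and positions are from GENCODE M21 (GRCm38), in which 50354 of 50578 identifiers (99.6%) were found, and RPKM used the union of exons. Promoter windows are from RefSeq GRCm38.p6. Of the clock, immediate early and glucocorticoid lists, up to 6 or 3 genes were named by smallest p against MEF. The fibroblast, macrophage, hepatocyte and cell cycle lists are given as sums, and any members named were picked after their values were seen. One modifier gene that this rule would name is not reported here. The clock genes and all lists were chosen with earlier results of these data known.

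Alternatives were DESeq2 1.42.0, RLE size factors, no filter, at least 10 counts in every library, fits of only the 2 groups compared, the replicate number as a block, and leaving out each library in turn. The tests were also run on simulated counts in which only a small part of the genes differed, unlike these data. That run does not show how the tests behave here. Total counts of 15039566 to 20504338 per library leave Hlf and Per2 with the fewest reads among the clock genes. Intervals come from the spread between libraries.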

Additional observations from a re-analysis of the deposited data

Results flagged for a closer look

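The values of Per3 and Tef lay on opposite sides of MEF with different molecules, and the direct test between the molecules passed. Per3 was 0.61 above MEF with LY-364747 and -0.22 against MEF with CHIR-99021 on the log2 scale, and the difference of CHIR-99021 from LY-364747 was -0.83 (edgeR adjusted p = 0.00445, lower in 2 of 2 libraries). Tef was 0.49 above MEF with LY-364747, 0.26 above MEF with carbidopa and at -0.059 with CHIR-99021. Its difference of CHIR-99021 from LY-364747 was -0.55 (edgeR adjusted p = 0.00366) and that from carbidopa was -0.32 (edgeR adjusted p = 0.0440), and both CHIR-99021 libraries were below all carbidopa and LY-364747 libraries. The Tef difference from carbidopa was called in only 4 of 14 alternatives and was lost with DESeq2, without the filter, in a fit of those 2 groups alone and with the replicate block. Neither CHIR-99021 value differed from MEF past the threshold. The cell cycle sum, 186 to 204 CPM with CHIR-99021 and 303 to 335 CPM with the other 2 molecules, moved with the same contrast, and its part in these results was not tested.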

How the results depend on the processing

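No log2 fold change of a clock gene that passed the threshold changed sign in any of the 14 alternatives. Called in all 14 were 4 of 5 clock genes with carbidopa (Arntl, Per1, Dbp and Hlf), 5 of 8 with LY-364747 (Arntl, Per1, Dbp, Tef and Hlf) and 1 of 7 with CHIR-99021 (Per2), and none of the 5 in either comparison of CHIR-99021 with another molecule. DESeq2 called 4 clock genes for CHIR-99021 against MEF, 2 for CHIR-99021 against carbidopa, and 16 of all genes for LY-364747 against carbidopa. Fits of only the 2 groups compared called 0 clock genes, 2 other clock genes and 1027 of all genes for CHIR-99021 against carbidopa, 3673 of all genes for CHIR-99021 against LY-364747 and 0 for LY-364747 against carbidopa, where leaving out the filter gave 329. With the longest transcript, 4 of 10 clock genes kept their place in the order of levels in MEF. The cause of these shifts was not tested.

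With the replicate block, 2 clock genes were called for CHIR-99021 against carbidopa in place of 5, 4 for carbidopa against MEF in place of 5, 6 for CHIR-99021 against MEF in place of 7 and 4 for CHIR-99021 against LY-364747 in place of 5, and the other 2 comparisons kept their counts of 8 and 0. The deviations of same-numbered libraries from their group means correlated between -0.16 and 0.13. Whether same-numbered libraries shared a culture or a batch was not tested.

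Leaving out 1 library at a time, with a lone library assumed to vary like the other groups, clock gene calls ranged from 4 to 6 for carbidopa, 5 to 8 for LY-364747 and 2 to 7 for CHIR-99021 against MEF, and from 0 to 4 for LY-364747 against carbidopa, 0 to 6 for CHIR-99021 against carbidopa and 1 to 6 for CHIR-99021 against LY-364747. In the same order, other clock genes ranged from 14 to 24, 13 to 23, 12 to 19, 0 to 5, 2 to 13 and 4 to 12, and all genes from 3142 to 7996, 2841 to 6519, 3433 to 7800, 2 to 3816, 715 to 4632 and 663 to 4228. The changes of sign were all in uncalled log2 values, and each arose with the named libraries left out. For LY-364747 against MEF, Clock ranged from -0.094 to 0.028 (above 0 without LY-364747 replicate 2). For CHIR-99021 against carbidopa, Clock ranged from -0.016 (without carbidopa replicate 1) to 0.59. For LY-364747 against carbidopa, Per1 ranged from -0.12 to 0.071 (above 0 without LY-364747 replicate 2 and, at 0.052, without carbidopa replicate 2) and Dbp from -0.56 to 0.11 (above 0 without carbidopa replicate 1). For CHIR-99021 against LY-364747, Cry2 ranged from -0.086 to 0.057 (above 0 without CHIR-99021 replicate 2 and without LY-364747 replicate 2).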

Other observations

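Per1 belongs to 2 wider groups of genes that cells induce quickly, and these groups were measured too. The immediate early list leaves Per1 out, whereas the glucocorticoid counts and medians include Per1, which fell with each molecule. Of 13 immediate early genes, which respond to serum within minutes, 2 rose and 8 fell with carbidopa, 2 rose and 9 fell with LY-364747, and 2 rose and 7 fell with CHIR-99021. In all 76.9%, 84.6% and 69.2% of the list passed, beside 37.7%, 31.0% and 38.8% of all genes tested. The median log2 fold change of the 13 was -0.89, -1.15 and -1.11, beside 0.037, 0.028 and 0.043 for all genes tested. Nr4a1, which encodes an orphan nuclear receptor, was at 36.6 and 31.8 CPM in MEF libraries and between 6.29 and 8.69 CPM in all treated ones. Egr1 averaged 73.6 CPM in MEF and 21.0, 24.4 and 23.1 CPM with carbidopa, LY-364747 and CHIR-99021.

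Of 9 glucocorticoid-responsive genes, Per1 among them, 8 were tested, and 2 rose and 4 fell with carbidopa and with LY-364747, and 2 rose and 5 fell with CHIR-99021. These are 75.0%, 75.0% and 87.5% of those tested, beside 37.7%, 31.0% and 38.8% of all genes tested, and the medians were -0.32, -0.30 and -0.46. Klf9, the gene of a clock-linked repressor, was at 53.2 and 54.1 CPM in MEF libraries and between 107 and 118 CPM in all treated ones. Errfi1, the gene of an inhibitor of EGF receptor signalling, averaged 26.7 CPM in MEF, 42.5 with carbidopa, 40.2 with LY-364747 and 104 with CHIR-99021. Mt2, a metallothionein gene, was at 153 and 147 CPM in MEF libraries and between 46.2 and 93.8 CPM in treated ones. The group therefore did not move in 1 direction.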
